A study of Mus musculus with 6 samples.

Results

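The 10 genes described here mark resident macrophages and other leukocytes in muscle: Adgre1, Cd68, Csf1r, Mrc1, Cd163, Lyz2, C1qa, C1qb, C1qc and Ptprc. They were chosen by name, as the rows of the count table whose gene symbol equals one of these 10 names, and all 10 were found among 34714 symbols. The choice was made with earlier results of these data known. The libraries were made from gastrocnemius (Gas) muscle of untreated male mice at 8 weeks of age, with 3 wild-type (WT) mice on the C57BL/6 background and 3 miR-92b global knockout (M92KO) mice, 1 library for each mouse. The knockout line was made on C57BL/6JGpt and is germline and global, so the deletion was not limited to muscle fibres and extended to leukocytes and their precursors. The WT mice were not described as littermates of the M92KO mice. The knockout itself was not analysed here, because the precursor of miR-92b has no row in the count table used.

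Tissue-resident macrophages of skeletal muscle sit between the fibres and around vessels, where they take up debris, dead cells and spent proteins and take part in repair after injury. They depend on signals through the CSF1 receptor, carry scavenger receptors on their surface and are a main source of the C1q proteins that start the classical complement pathway. In whole muscle these cells are a small minority next to the fibres, so their transcripts are counted at low levels. In such bulk samples fewer cells of a type and less RNA per cell cannot be told apart.

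The libraries held between 33160508 and 48209846 counts, and each M92KO library was smaller than each WT library. Expression is given as CPM (counts-per-million) after TMM scaling of the library totals, and 15788 genes passed the filter on low counts. The 8 genes of the skeletal muscle fibre list were all tested, and Acta1, the skeletal actin, had 26546 ± 906 CPM in WT and 26677 ± 236 CPM in M92KO muscles (mean ± SD, n = 3). Each marker gene had between 45 and 2366 counts in every library, well above the limit of 3 counts that was used as the floor of detection, and therefore all 10 were tested whichever group was higher.

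Both strands of the deleted microRNA are shown first, because their seeds define which transcripts could pair with them in WT muscle. Both sequences are from RefSeq on GRCm38.p6 and lie on the minus strand of chromosome 3, with the 3p strand at chr3:89227126-89227147 and the 5p strand at chr3:89227165-89227188. Capitals mark the seed, bases 2 to 8 counted from the 5′ end.
mmu-miR-92b-3p: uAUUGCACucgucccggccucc
mmu-miR-92b-5p: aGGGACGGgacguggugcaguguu
A seed match was counted where the sense strand of an annotated 3′-UTR held GTGCAAT or TGCAATA for the 3p strand, or CCGTCCC or CGTCCCA for the 5p strand. The pair of words for each strand overlaps, and both occur at once in an 8-base match. None of the 10 marker genes held a match to miR-92b-3p, where 1962 of 13505 tested genes with an annotated 3′-UTR did (14.5%). A shorter match of 6 bases, to seed bases 2 to 7, was also absent from the 10 genes and present in 27.4% of genes. For miR-92b-5p, 1 of the 10 genes held a match, against 800 of 13505 genes (5.92%). That gene was Csf1r. Its annotated 3′-UTRs of 654 and 1669 bases both held an 8-base match and a separate CGTCCCA. The level of Csf1r is given below with those of the other genes. The 3′-UTRs of the 10 genes were short to moderate, with the longest form per gene between 158 bases in Cd68 and 1669 bases in Csf1r. A match describes the letters only, and whether any of these transcripts is bound was not measured.

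Between genotypes, 9 of the 10 marker genes had a log2 fold change below 0 (lower in M92KO), where 50% of all genes tested did. Their median log2 fold change was -0.18, against -8.07e-05 over all genes tested. Against the unadjusted threshold of 0.05 that the study used, 1 of the 10 genes passed in edgeR, Ptprc, which was lower in M92KO muscles. Among all genes tested, 12.4% passed in either direction and 6.92% passed with a lower level in M92KO, so that 1 of 10 was near the background. After Benjamini-Hochberg adjustment over all genes, edgeR called none of the 10 and 0 of 15788 genes (0%), with 1955 genes at the unadjusted threshold, whereas DESeq2 called 312 genes and again none of the 10. In 2 of the 10 genes, Ptprc and Mrc1, every M92KO value lay below every WT value, as it did in 9.56% of all genes tested. With 3 mice in each group, an exact permutation test of a single gene could not give a two-sided p-value below 0.1.

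**Figure D1:**
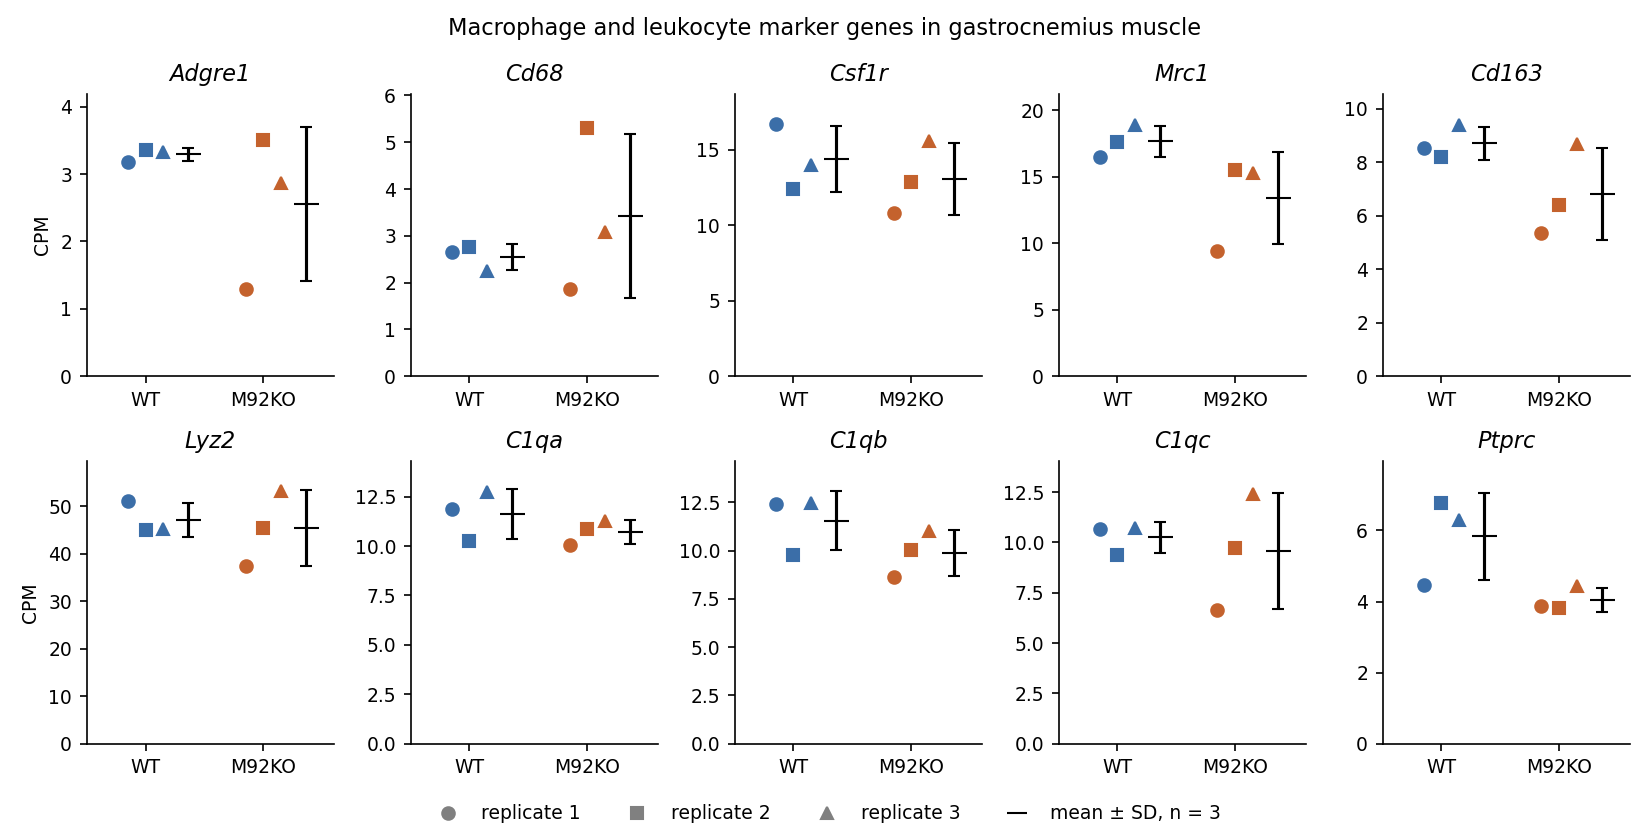
CPM (y axis, linear, starting at 0) of each of the 10 marker genes in the 3 WT (blue) and 3 M92KO (orange) libraries, with marker shapes for replicate numbers and black bars for mean ± SD. The groups are apart only for Mrc1 and Ptprc, and replicate 1 of M92KO is the lowest library in 9 of the 10 panels.

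Ptprc encodes CD45, the receptor phosphatase present on nearly all nucleated blood cells, and its gene lies on the minus strand at chr1:138062861-138175708 (GRCm38). Its levels were 4.46, 6.78 and 6.28 CPM in the WT libraries and 3.89, 3.82 and 4.43 CPM in the M92KO libraries. The groups did not overlap, although WT 1 and M92KO 3 were almost level. The mean was 5.84 ± 1.22 CPM in WT and 4.04 ± 0.338 CPM in M92KO mice (SD, n = 3). Its log2 fold change was -0.53 (SE 0.177, 95% interval -0.93 to -0.12), which corresponds to 0.694-fold of the WT level. The unadjusted p-value of the edgeR quasi-likelihood test was 0.0166, and the adjusted one was 0.304. The call depended on single libraries: the unadjusted p-value was 0.0724 without WT 2, 0.0552 without WT 3 and 0.0511 without M92KO 2, with log2 fold changes of -0.41, -0.47 and -0.49. With limma on quantile-normalized log2 counts, the steps of the supplementary methods, it was 0.0694. Ptprc was the only marker gene whose lowest value was not in M92KO 1.

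Mrc1 and Cd163 encode scavenger receptors of resident macrophages. Mrc1 (CD206), the mannose receptor, binds glycoproteins for uptake, and lies on the plus strand at chr2:14229392-14332057. It had 16.5, 17.6 and 18.8 CPM in WT and 9.44, 15.5 and 15.3 CPM in M92KO muscles, so that the groups did not overlap and M92KO 1 was far below the other libraries. Its log2 fold change was -0.39 (SE 0.176, 95% interval -0.80 to 0.01), with an unadjusted edgeR p-value of 0.0538 and an adjusted one of 0.414. Without M92KO 1, whose level was the lowest, the log2 fold change of Mrc1 was -0.19 with an unadjusted p-value of 0.0524. Without M92KO 2 or without M92KO 3 it passed the unadjusted threshold, at 0.0324 and 0.0382.

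Cd163, the receptor that clears complexes of haemoglobin and haptoglobin, lies on the plus strand at chr6:124304656-124330527. Its levels were 8.55, 8.20 and 9.40 CPM in WT and 5.35, 6.41 and 8.70 CPM in M92KO muscles. M92KO 3 fell inside the WT range and the other M92KO libraries lay below it. The log2 fold change was -0.35 (SE 0.173, 95% interval -0.75 to 0.04), with an unadjusted edgeR p-value of 0.0740 and an adjusted one of 0.465. Without M92KO 3 the log2 fold change was -0.57 and the unadjusted p-value 0.00398, and without M92KO 1 they were -0.21 and 0.207. Within a library, Cd163 had 0.494 ± 0.0271 counts for each Mrc1 count in WT and 0.516 ± 0.0896 in M92KO mice, and the groups overlapped.

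Adgre1, Csf1r and Cd68 mark the macrophage lineage as a whole. Adgre1 encodes F4/80, the adhesion receptor that is the standard surface marker of mouse macrophages, on the plus strand at chr17:57358691-57483527. It was steady in WT muscles, at 3.18, 3.36 and 3.33 CPM, and spread widely in M92KO muscles, at 1.30, 3.51 and 2.86 CPM. Both its lowest and its highest value were in M92KO libraries. The log2 fold change was -0.37 with a wide 95% interval of -1.06 to 0.33 (edgeR adjusted p = 0.688), and it was -0.05 without M92KO 1 and -0.66 without M92KO 2.

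Csf1r encodes the receptor for CSF1 and IL-34 that keeps macrophages alive. Its levels were 16.7, 12.4 and 14.0 CPM in WT and 10.8, 12.9 and 15.6 CPM in M92KO muscles, and the ranges overlapped. The log2 fold change of Csf1r, the gene with the miR-92b-5p seed matches, was -0.14 (SE 0.156, 95% interval -0.49 to 0.22, edgeR adjusted p = 0.773). An exon of Hmgxb3 overlaps Csf1r on the opposite strand, and because the strand setting of the counting was not given in the sources used here, reads of the pair may have been shared. Hmgxb3 had 35.9 ± 1.40 CPM in WT and 32.5 ± 0.802 CPM in M92KO muscles, with a log2 fold change of -0.14 as well.

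Cd68 encodes macrosialin, a glycoprotein of late endosomes and lysosomes, on the minus strand at chr11:69664213-69666153. It was the only marker gene with a log2 fold change above 0. It had 2.66, 2.77 and 2.24 CPM in WT and 1.87, 5.31 and 3.08 CPM in M92KO muscles, so that the lowest and the highest of the 6 values were both in M92KO libraries. The log2 fold change was 0.42 (SE 0.331, 95% interval -0.34 to 1.17, edgeR adjusted p = 0.669). Without M92KO 1 it was 0.71 with an unadjusted p-value of 0.0209 and an adjusted one of 0.181. Without M92KO 2, the library with 5.31 CPM, its sign turned to -0.04. The 10 genes of the general lysosome list had a median log2 fold change of 0.03, 4 lay below 0 and 6 above, and only Ctsd, the protease cathepsin D, passed the unadjusted threshold (log2 fold change 0.16).

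**Figure D2:**
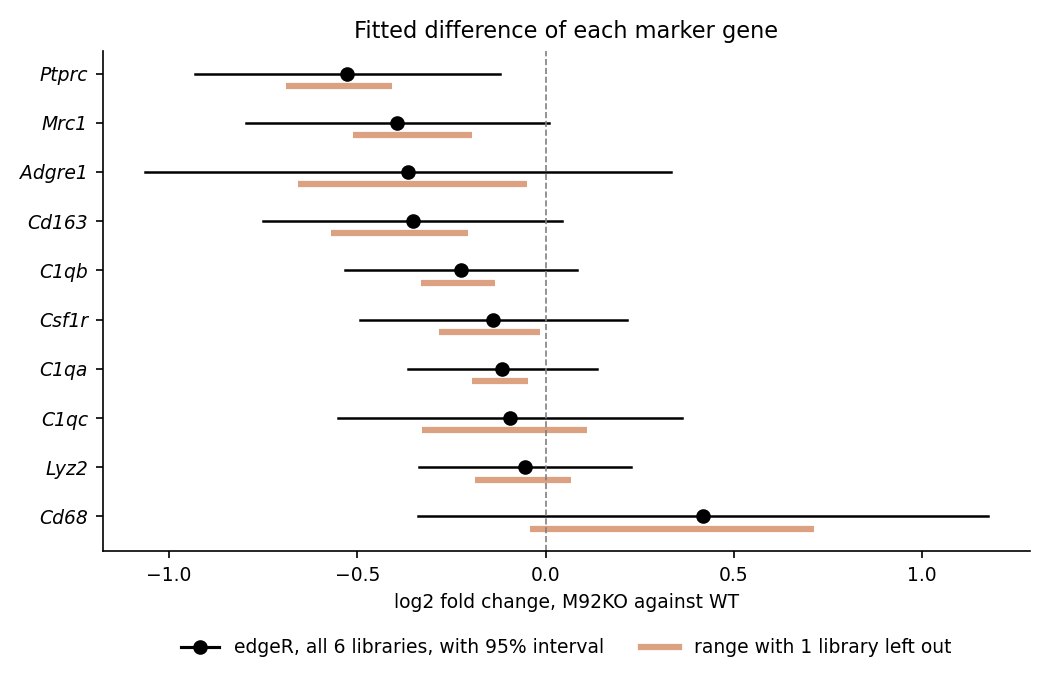
Log2 fold change (x axis, M92KO against WT, edgeR) of the 10 marker genes, with black lines for the 95% interval and orange bars for the range of the estimate when 1 of the 6 libraries is left out. Only the interval of Ptprc stays below 0, and the orange bars of C1qc, Lyz2 and Cd68 cross 0.

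Lyz2 and the C1q genes encode secreted products of macrophages. Lyz2, the lysozyme of myeloid cells and the most abundant of the 10 transcripts, lies on the minus strand at chr10:117277331-117282321. It had 51.2, 44.9 and 45.3 CPM in WT and 37.4, 45.5 and 53.2 CPM in M92KO muscles, with a log2 fold change of -0.05 (SE 0.124, 95% interval -0.34 to 0.23, edgeR adjusted p = 0.902). M92KO 1 lay below and M92KO 3 above the WT range, with M92KO 2 within it, and the sign turned to 0.01 without WT 1 and to 0.07 without M92KO 1. Its near-identical neighbour Lyz1, the lysozyme of intestinal Paneth cells, held 6.22% of the counts of the pair, and reads shared between both genes could have been assigned to either. Lyz1 had a log2 fold change of -0.31 (SE 0.181, edgeR adjusted p = 0.548).

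C1qa, C1qb and C1qc encode the chains A, B and C of C1q, which assemble together into the recognition molecule of the classical complement pathway. They lie side by side on the minus strand of chromosome 4 within 18675 bases, with C1qa at chr4:136895917-136898803, C1qc at chr4:136889804-136893065 and C1qb at chr4:136880129-136886187. Their summed level was 34.9, 29.4 and 35.9 CPM in WT and 25.4, 30.6 and 34.7 CPM in M92KO libraries, with means of 33.4 ± 3.51 and 30.2 ± 4.68 CPM (SD, n = 3). Only M92KO 1 lay below the WT range.

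The 3 chains had log2 fold changes of -0.11 for C1qa (SE 0.110), -0.22 for C1qb (SE 0.135) and -0.10 for C1qc (SE 0.200), with edgeR adjusted p-values of 0.727, 0.559 and 0.892. C1qa was the steadiest in M92KO mice, at 10.1, 10.9 and 11.3 CPM against 11.9, 10.2 and 12.7 CPM in WT. C1qb had 8.63, 10.04 and 11.01 CPM against 12.4, 9.78 and 12.5 CPM. C1qc varied more in M92KO mice, at 6.65, 9.71 and 12.4 CPM against 10.6, 9.37 and 10.7 CPM. Within a library, the chains stayed near an equal count: for each C1qb count there were 0.958 to 1.05 C1qa counts in WT and 1.02 to 1.17 in M92KO mice. The ratio of C1qc to C1qb ranged from 0.859 to 0.958 in WT and from 0.770 to 1.13 in M92KO mice. The log2 fold change of C1qc was 0.11 without M92KO 1, and C1qb passed the unadjusted threshold only without WT 2, at a log2 fold change of -0.33 and a p-value of 0.0386.

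Levels of different genes can be compared only per length, and were therefore divided by the length of the longest annotated coding transcript. In WT muscles, Lyz2 was first at 35.8 ± 2.67 CPM per kilobase. It was followed by C1qa at 11.2 ± 1.21 and C1qb at 10.6 ± 1.41, whose ranges over the WT libraries overlapped, and by C1qc at 8.52 ± 0.632. The secreted products held the first 4 places. The surface receptors Mrc1 (3.28 ± 0.222 CPM per kilobase) and Csf1r (3.06 ± 0.463) came next and overlapped with each other, as did Cd68 (2.08 ± 0.227) and Cd163 (1.96 ± 0.139). Ptprc (1.15 ± 0.241) and Adgre1 (1.02 ± 0.0302) were the lowest and also overlapped. The other neighbours in this order did not overlap in the WT libraries.

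Much of the spread of the 10 genes followed 1 library. M92KO 1 had the lowest value of the 6 libraries in 9 of the 10 marker genes, while over all genes tested it had the lowest value in 25.3% and the highest in 25.1%. Other immune genes, described below, shared this less evenly. M92KO 1 was lowest in 11 of 28 tested genes of the longer macrophage list and in 4 of 5 mast cell genes. It was lowest in 1 of 11 genes of MHC class II and dendritic cells, 1 of 6 T, B and NK cell genes and 0 of 4 neutrophil genes. The median distance of the 10 genes from their own mean over the 6 libraries was -0.42 on the log2 scale in M92KO 1, and between -0.03 and 0.21 in the other libraries. The summed level of the 10 genes was 138, 125 and 135 CPM in WT and 95.4, 124 and 138 CPM in M92KO libraries. Hence M92KO 2 lay just below the WT range and M92KO 3 within it. The highest values were spread over 5 libraries, with 4 of the 10 in WT 3. M92KO 1 also stood apart in genes of other cells. It had the lowest level of Myh1, the fast myosin of type IIx fibres (9659 CPM against at least 14339 CPM elsewhere), the highest level of Myh4, the myosin of type IIb fibres (31499 CPM), and the lowest level in 5 of the 6 fibroblast genes. Whether the part of muscle sampled, or the share of connective tissue in it, had a part in the low marker levels was not tested.

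Without M92KO 1, the median log2 fold change of the 10 genes was -0.06, with 7 genes below 0 and 3 above, and 2 genes passed the unadjusted threshold in opposite directions. Ptprc was lower in M92KO (log2 fold change -0.50) and Cd68 was higher (0.71). Their unadjusted edgeR p-values were 0.0404 and 0.0209, and the adjusted ones 0.245 and 0.181. In that fit 2956 of all genes passed the unadjusted threshold and 412 the adjusted one, and none of the 412 was a marker gene.

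**Figure D3:**
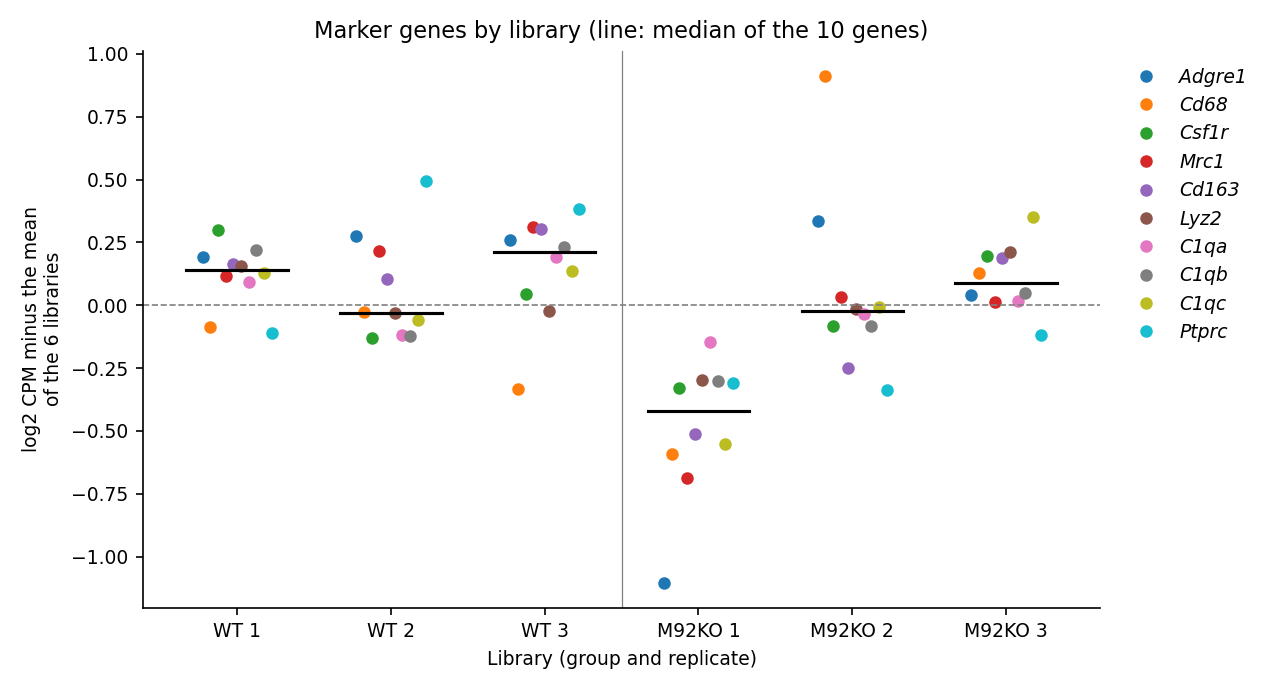
Distance of each marker gene's log2 CPM from its mean over the 6 libraries (y axis, log2 units), by library (x axis), with a horizontal line at the median of the 10 genes in each library. All 10 points of M92KO 1 lie below 0, around a median of -0.42, while those of the other libraries lie on both sides of 0.

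Since a ratio of counts within a library does not depend on its depth or scaling, ratios between marker genes were also compared. The ratio of Cd68 to Adgre1 was 0.837, 0.823 and 0.673 in WT and 1.44, 1.51 and 1.08 in M92KO libraries, so that all M92KO values, including that of M92KO 1, lay above all WT values. The means were 0.778 ± 0.0909 in WT and 1.34 ± 0.235 in M92KO mice (SD, n = 3). This ratio was singled out after its values were seen, among the 5 that were computed, and is given with no test. The counts behind it were among the smallest of the marker genes, from 45 to 174 in each library. The ratio of Csf1r to Ptprc overlapped between genotypes, at 3.75, 1.83 and 2.23 in WT and 2.79, 3.37 and 3.51 in M92KO libraries.

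**Figure D4:**
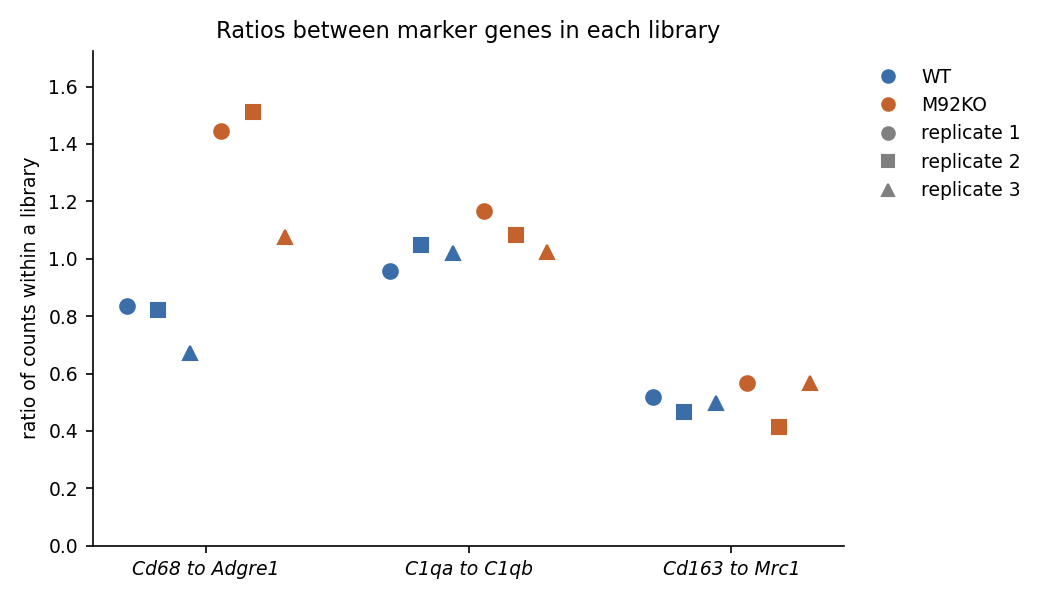
Ratio of raw counts of a pair of marker genes within each library (y axis, linear, starting at 0) for WT (blue) and M92KO (orange), with marker shapes for replicate numbers. The Cd68 to Adgre1 ratios of the M92KO libraries, 1.08 to 1.51, lie above those of the WT libraries, 0.673 to 0.837, and the ratios of C1qa to C1qb and of Cd163 to Mrc1 overlap between genotypes.

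Among 54 other macrophage and leukocyte genes, the 3 whose log2 CPM values over the 6 libraries were most like the mean profile of the 10 markers were Ms4a6c (Pearson r = 0.953), Mcpt4 (r = 0.929) and Folr2 (r = 0.918). Over the 54 genes r ranged from 0.953 down to -0.798, with macrophage genes at both ends, so the wider set did not share 1 profile. These values describe 6 libraries of unequal depth that include M92KO 1, where Ms4a6c had 0.461 CPM against 1.28 to 1.84 CPM elsewhere. Folr2, the folate receptor of resident macrophages, had 1.65 ± 0.197 CPM in WT and 1.15 ± 0.424 CPM in M92KO muscles. Mcpt4, a protease of mast cells, had 2.37 ± 0.248 and 1.95 ± 0.976 CPM.

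Other macrophage genes were taken from a longer list. Of the 29 listed, 28 were tested, 20 had a log2 fold change below 0 and 8 above, and the median was -0.20. Over all genes tested in edgeR, 50% lay below 0, 12.4% passed the unadjusted threshold in either direction and 6.92% passed it lower. After adjustment 0% passed. These shares are the background for the lists that follow as well. In the longer macrophage list 4 genes passed the unadjusted threshold lower in M92KO and 1 higher, and none passed after adjustment. The lower ones included Clec10a, a galactose-binding lectin of macrophages and dendritic cells (3.41 ± 0.328 CPM in WT and 2.31 ± 0.499 CPM in M92KO, log2 fold change -0.56), Maf, a transcription factor found in macrophages and in other cells (-0.49), and the scavenger receptor Stab1 (-0.23). The higher one was Trem2, a lipid-sensing receptor of macrophages, at 0.195, 0.259 and 0.251 CPM in WT and 0.489, 0.488 and 0.496 CPM in M92KO libraries. Its groups did not overlap and its log2 fold change was 1.06 (SE 0.313, edgeR adjusted p = 0.256), with 9 to 12 counts in each WT and 16 to 18 counts in each M92KO library.

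In the list of the CSF1 axis and of monocyte recruitment, 10 of 13 genes were tested and 1 passed the unadjusted threshold. This was Ccr2, the chemokine receptor by which monocytes enter tissue, at 4.24, 4.79 and 2.49 CPM in WT and 5.41, 5.65 and 5.31 CPM in M92KO libraries. It was higher in all M92KO libraries, with a log2 fold change of 0.51 (SE 0.224, edgeR adjusted p = 0.402). Neither ligand of Csf1r passed the threshold. Csf1 had 20.4 ± 2.85 CPM in WT and 23.0 ± 3.17 CPM in M92KO, and Il34 had 6.93 ± 0.855 and 6.96 ± 0.940 CPM.

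For the complement genes other than C1q, 16 of 17 were tested, with a median log2 fold change of -0.12. C1s1, a protease that acts with C1q (log2 fold change -0.19), and C5ar1, the receptor for the C5a fragment (-0.54), passed the unadjusted threshold lower in M92KO. Cd55, which protects host cells from complement, passed it higher (106.9 ± 7.32 CPM in WT and 127 ± 4.56 CPM in M92KO, log2 fold change 0.25, edgeR adjusted p = 0.251). Of the 11 genes of MHC class II and dendritic cells, 9 lay below 0 and 2 above, with a median of -0.22, and Cd74 and H2-Eb1, the invariant chain and a beta chain of MHC class II, passed it lower (-0.28 for each).

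Genes of activation and repair states were mostly low, and 10 of 17 were tested. Nos2, the inducible nitric oxide synthase, passed the unadjusted threshold lower, at 16.7 ± 1.93 CPM in WT and 11.3 ± 2.12 CPM in M92KO, as did Spp1, the secreted protein osteopontin, whose WT values ranged from 3.93 to 28.7 CPM and overlapped with 1.56 to 9.38 CPM in M92KO. Ccl3, a chemokine of activated macrophages, had 0 counts in all 6 libraries.

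**Figure D5:**
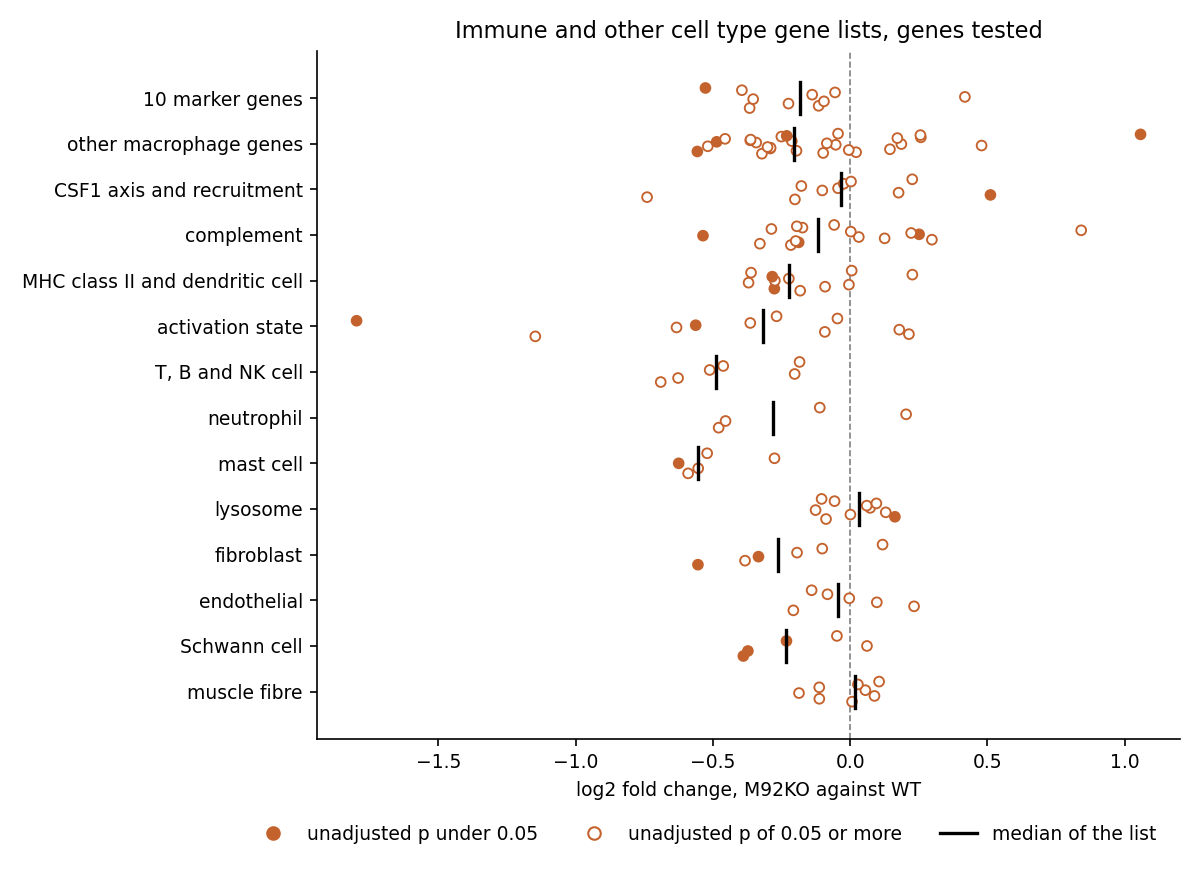
Log2 fold change (x axis, M92KO against WT, edgeR) of each tested gene of the marker genes and of other immune and cell type lists (rows), with filled circles for an unadjusted p-value under 0.05 and black lines for the median of a list. The medians of the marker genes and of the other macrophage, complement, MHC class II and activation state lists lie below 0. So do those of the T, B and NK cell, neutrophil, mast cell, fibroblast and Schwann cell lists. Those of the CSF1 axis, endothelial, muscle fibre and lysosome lists lie near 0. The lists of pericytes and smooth muscle (median 0.0016), fat cells (0.40) and red cells (0.66) are not drawn.

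Markers of other leukocytes had few counts, and the floor of detection was 0.0628 to 0.0916 CPM for 3 counts. Of 14 T, B and NK cell genes 6 were tested and none passed the unadjusted threshold; all 6 lay below 0. Highest in CPM, not scaled for length, was the B cell gene Cd79b, at 0.628 ± 0.164 CPM in WT and 0.441 ± 0.283 CPM in M92KO. The summed level of the list was 2.75 to 4.09 CPM in WT and 2.01 to 2.96 CPM in M92KO libraries. Of the 11 neutrophil genes 4 were tested and none passed, with Csf3r and S100a9 the highest in CPM, again not scaled for length. Summed levels were 2.01 to 3.27 CPM in WT and 1.38 to 2.90 CPM in M92KO libraries. The listed neutrophil genes Ly6g and Elane had 0 counts in all 6 libraries, whereas Csf3r had 25 to 79 counts in each. The part of lymphocytes in the lower Ptprc level, which they also express, was not tested.

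In the mast cell list all 5 tested genes of 7 had a log2 fold change below 0, with a median of -0.55, and Kit, the receptor for stem cell factor, passed the unadjusted threshold (6.63 ± 2.19 CPM in WT and 4.29 ± 0.236 CPM in M92KO). The summed level of the list was 14.9 to 16.4 CPM in WT and 9.09 to 12.4 CPM in M92KO libraries, without overlap. Kit made up much of these sums, with 5.21, 9.16 and 5.53 CPM in WT and 4.52, 4.30 and 4.05 CPM in M92KO libraries. It was the only tested gene of the list whose groups did not overlap.

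Other cells of muscle were described by lists of their own. Of 6 fibroblast genes 5 lay below 0 (median -0.26), and Dcn, the proteoglycan decorin (log2 fold change -0.33, adjusted p = 0.188), and Col1a1, a chain of type I collagen (-0.55), passed the unadjusted threshold lower. Summed fibroblast levels were 1374 to 1726 CPM in WT and 926 to 1279 CPM in M92KO libraries, without overlap. In the Schwann cell list of 5 genes, Mbp and Pmp22 were among those that passed it lower, and summed levels were 121 to 164 CPM in WT and 121 to 125 CPM in M92KO libraries.

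The endothelial list (6 genes, median -0.04), the muscle fibre list (8 genes, 0.02) and the red cell list (5 genes, 0.66) had no gene past the threshold, and red cell genes spread widely, from 74.0 to 222 CPM in WT and from 143 to 336 CPM in M92KO libraries. In the list of pericytes and smooth muscle, Cspg4 was higher (0.43) and Rgs5 lower (-0.19), and in that of fat cells, whose median was 0.40 over 5 tested genes, Pparg was lower (-0.55). The 16 other lists hold 170 genes, not all of them tested, and none of those tested passed after adjustment in edgeR. Since 0 of all 15788 genes tested passed, this could not differ between lists. The part of these cell types in the levels of the 10 marker genes was not tested.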

How the data were processed

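Total RNA of Gas muscle from 3 WT and 3 M92KO mice was made into libraries with a SMARTer mRNA kit per the labels. The authors deposited raw counts per gene symbol, unnormalized, for all 6 libraries. GRCm38 (mm10) is named in the submitters' processing notes, and the aligner, the counter, the annotation and the strand setting are not given in the sources used here. Without strand, reads of overlapping genes cannot be separated.

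Counts were filtered with filterByExpr (minimum count 10, minimum total count 15), scaled by TMM and tested with the edgeR 4.0.16 quasi-likelihood test in R 4.3.3, with all 6 libraries and no covariate. The Benjamini-Hochberg adjustment covered the whole set of 15788 genes. The standard error of a log2 fold change was derived from this test. DESeq2 1.42.0 and the study's steps in limma 3.58.1 were alternatives. The test was checked on simulated data with known changes. The floor of 3 counts covers counting error only. The edgeR p-values set the difference of the groups against the spread between these mice, estimated with information shared over all genes tested.

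The marker genes and the lists were chosen with earlier results of these data known. All 10 marker genes are named. Of each other list, up to 4 genes of smallest p past the unadjusted threshold were named, or up to 2 of the highest CPM where none passed, together with the 3 genes most like the marker profile. Some genes that this rule selects are not reported here. Myh1, Csf1, Il34, Hmgxb3, Lyz1, Ccl3, Ly6g and Elane were named outside this rule, after their values were seen. Positions, transcripts and 3′-UTRs of at least 20 bases came from GENCODE M21, with 25739 of 34714 symbols matched.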

Additional observations from a re-analysis of the deposited data

How the results depend on the processing

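Over the 10 marker genes and 14 alternatives, 119 of 140 log2 fold changes kept their direction and their side of the unadjusted threshold, 4 lost it, 13 gained it and 4 changed sign. No marker gene passed an adjusted threshold under any of the 14. The 4 that changed sign came from leaving out 1 library: Lyz2 (0.0087 without WT 1 and 0.067 without M92KO 1), C1qc (0.11 without M92KO 1) and Cd68 (-0.042 without M92KO 2). Over the 6 libraries left out, Lyz2 ranged from -0.19 to 0.067, C1qc from -0.33 to 0.11 and Cd68 from -0.042 to 0.71. Leaving out 1 library at a time gave 0 to 3 marker genes lower and 0 to 1 higher at the unadjusted threshold, a median log2 fold change from -0.32 (without M92KO 3) to -0.06 (without M92KO 1), 1217 to 2956 of all genes at the unadjusted threshold and 0 to 412 after adjustment. The number of marker genes lower was 1 in the main analysis and 0 without WT 3 or with the study's steps (limma on quantile-normalized log2 counts). It was 2 with the DESeq2 Wald test or with offsets for GC content and length, 3 without M92KO 3, and 3 with no filter on low counts. In either direction, 1955 of all genes passed the unadjusted threshold in the main analysis, 1273 without WT 3 and 2287 with the study's steps. Their number was 1722 with DESeq2, 1934 with the offsets, 1687 without M92KO 3 and 2207 with no filter. The study's steps and the fit with no filter also tested genes of low counts, and the offsets covered 14559 genes. After adjustment, 0 genes passed in the main analysis, 312 with DESeq2, 42 with the study's steps and 6 with no filter. The cause of these differences was not tested.

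Same-numbered WT and M92KO libraries had correlations of their deviations of 0.0806, 0.0376 and 0.0151, and WT 3 correlated better with M92KO 2 (0.0365) than with its own number, so the numbers were not taken to pair the mice. A replicate block gave 3 marker genes lower (Mrc1, Cd163 and Ptprc) and 2 genes past adjustment, as did the block with GC and length offsets (3 and 2), and 1691 and 1603 genes at the unadjusted threshold. The SE of the log2 fold change was widest for Cd68 (0.331) and Adgre1 (0.306), the marker genes with the fewest counts (45 to 174 per library), and the part of depth in it was not tested.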
